A study of Mus musculus with 3 samples.

Results

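The 37 core genes of autophagy were examined among the 55536 Ensembl genes measured in macrophages grown from mouse bone marrow. They were taken by symbol from a named list, not by a threshold on their levels, and all 37 matched a gene. The RNA came from the cytosolic fraction of C57BL/6J macrophages taken 10 minutes after 100 ng/ml of Lipid A, the lipid anchor of lipopolysaccharide in bacteria, which TLR4 senses. Total RNA, with ribosomal RNA depleted, was sequenced from 3 libraries that form 1 group of biological replicates. All 3 carry the same donor identifier, and the labels give neither sex nor age, nor whether the replicates were separate animals or cultures, so every spread given here is that between these samples and may be technical. No untreated cells and no nuclear fraction were analysed here, so each value is a level after stimulation and not a response to it.

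Autophagy wraps a portion of cytoplasm in a double membrane, the autophagosome, and delivers it to the lysosome. A kinase complex around ULK1 starts the process, a lipid kinase complex around Beclin 1 marks the site, ATG9 and ATG2 bring membrane lipid, and ubiquitin-like conjugation attaches the small ATG8 proteins to that membrane. Cargo receptors bind ATG8 proteins on the inner face, and the SNARE syntaxin 17 takes part in fusion with the lysosome. Macrophages use the pathway to remove bacteria and damaged organelles, and use a part of the conjugation machinery on phagosomes.

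Replicate 1 was the shallowest library with 33978273 estimated counts, beside 54778530 for replicate 2 and 43237143 for replicate 3. All 10 macrophage markers reached 1 TPM in each library and summed to between 7923 and 9086 TPM, a unit for a gene's share of all transcripts that allows for length. None of 5 B cell, 6 T and NK cell, 5 mast cell and basophil, 5 erythroid and 6 stromal markers reached 1 TPM in each library, and 3 of the erythroid markers were at 0. Of 7 neutrophil markers 2 did, with a sum of 22.4 to 35.9 TPM, and of 6 dendritic cell markers 1 did, with a sum of 2.17 to 2.45 TPM. In such bulk samples fewer cells of a type and less RNA per cell cannot be told apart. Coordinates refer to mm10 and gene models to GENCODE M21.

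All 37 genes reached 1 TPM in each library, with between 180 counts (Atg10 in replicate 1) and 22477 counts (Gabarap in replicate 2). Their median level was 7.06 TPM, beside 7.35 TPM over the 9374 protein-coding genes at a mean of 1 TPM or more. Of the 37 genes, 18 lay above that median, and the percentiles of the 37 among those genes ran from 7.70 to 98.7. The highest was Gabarap at 238 TPM, and the lowest was Atg16l2 at 1.60 TPM. The medians of the roles differed, which was not tested, and the ranges of several roles overlapped. The ATG8 genes ran from 7.06 to 238 TPM, the cargo receptors from 8.28 to 42.0 TPM and the lipid kinase complex from 3.65 to 28.2 TPM. The ATG8 genes had a median of 34.6 TPM and the cargo receptors 18.0 TPM, whereas the genes for conjugation (8.66 TPM), the ULK complex (8.51 TPM), the lipid kinase complex (7.26 TPM), the ATG4 proteases (4.82 TPM) and membrane supply (4.77 TPM) were lower. In the order of the 37 levels, 27 of the 36 pairs of neighbours overlapped in their 3 libraries, so their ranges do not set most neighbouring ranks apart. Some of these pairs, such as Gabarapl1 above Tax1bp1 and Becn1 above Nbr1, still kept their order within each library. The 9 pairs that stood apart included Gabarap above Gabarapl1, Tax1bp1 above Map1lc3b and, at the bottom, Wipi1 above Atg10 and Atg10 above Atg16l2. In the second quantification, rescaled over protein-coding genes, 5 of these 9 pairs stood apart in the same order. Map1lc3b was then above Tax1bp1, Atg16l1 above Atg2b, and the ranges overlapped for Atg14 with Atg4d and for Atg10 with Atg16l2.

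**Figure D1:**
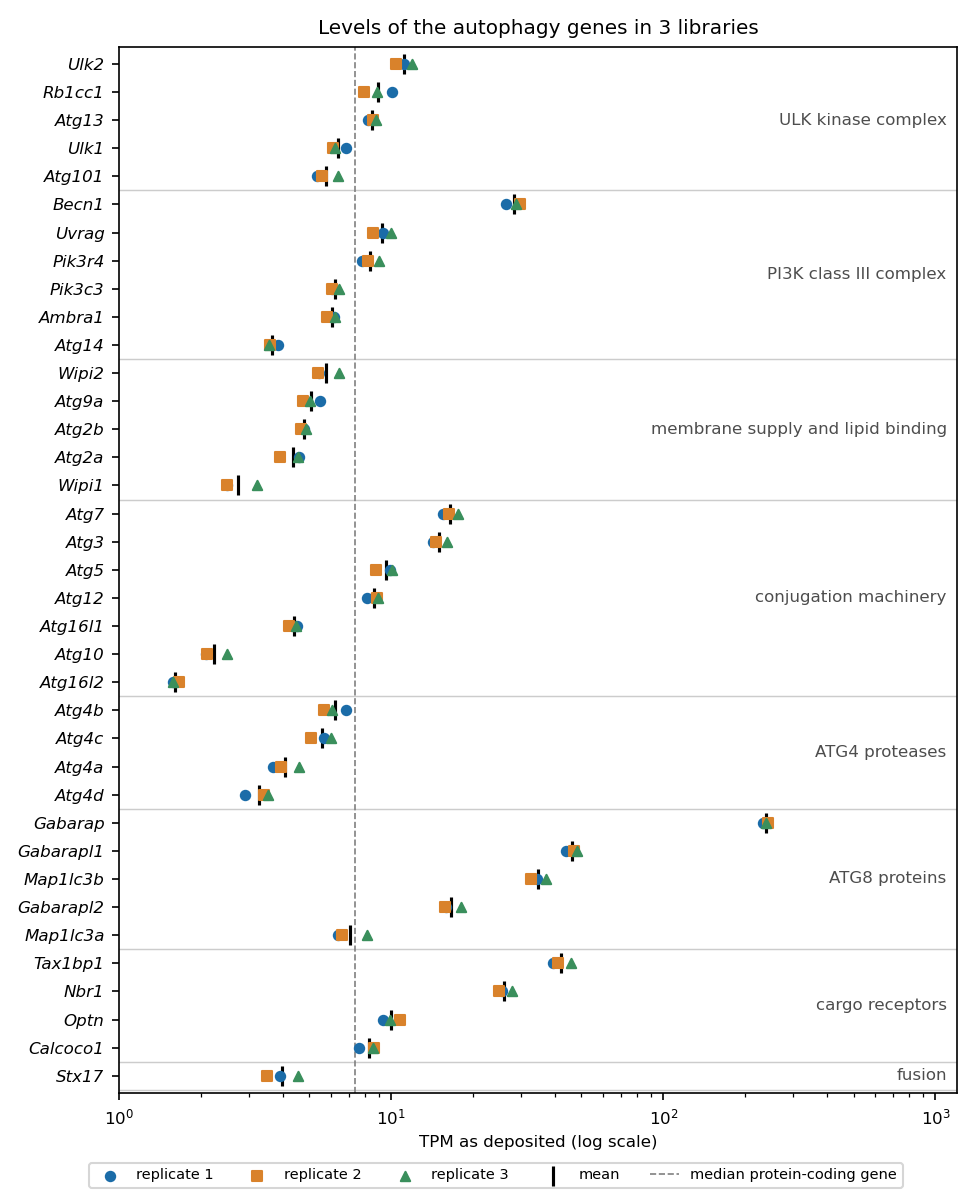
Level of each of the 37 genes in TPM on a log scale, grouped by role, with 1 symbol per replicate and a bar at the mean. The dashed line marks the median of the protein-coding genes at a mean of 1 TPM or more (7.35 TPM). Gabarap stands alone at 238 TPM, and the genes of membrane supply and the ATG4 proteases all lie left of the dashed line.

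The kinase complex that starts autophagy was present in every subunit. Ulk2, which encodes a kinase closely related to that of Ulk1, was the highest at 11.1, 10.4 and 11.96 TPM in replicates 1, 2 and 3. Ulk1 was lower at 6.79, 6.11 and 6.23 TPM. Ulk1 was thus below Ulk2 in all 3 libraries with no overlap, at 0.573 ± 0.0464 of its level (SD, n = 3). Atg101, whose product stabilises ATG13, was the lowest subunit in the mean, at 5.33, 5.56 and 6.38 TPM. It overlapped with Ulk1 and was above it in replicate 3. Atg13, a subunit that mTORC1 phosphorylates, and Rb1cc1, which encodes the scaffold FIP200, lay between Ulk2 and Atg101 in the mean. They were at 8.51 ± 0.302 and 8.95 ± 1.08 TPM (SD, n = 3). In the second quantification, rescaled, Rb1cc1 had the higher mean at 53.0 ± 8.12 TPM, beside 49.5 ± 2.02 TPM for Ulk2.

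In the lipid kinase complex Becn1, which encodes Beclin 1, had the highest level over all transcripts, at 26.3, 29.7 and 28.7 TPM. Atg14 and Uvrag encode the subunits that direct the kinase to autophagosome formation and to endosomes, respectively, and compete for Beclin 1. Atg14 was at 3.83, 3.57 and 3.55 TPM, the lowest of the complex when all transcripts are summed. Over protein-coding transcripts only, Becn1 overlapped with Atg14, and its mean was the lower. Uvrag was at 9.31, 8.54 and 9.94 TPM. Uvrag therefore exceeded Atg14 by 2.54 ± 0.225 times (SD, n = 3), and the 2 genes did not overlap. The ratio was 4.13 ± 0.294 in the second quantification, where most Uvrag TPM lay outside its protein-coding transcript, and 2.35 ± 0.157 over protein-coding transcripts of the first. The catalytic subunit gene Pik3c3 was at 6.19 ± 0.199 TPM, its regulatory partner Pik3r4 at 8.33 ± 0.592 TPM, and Ambra1, a Beclin 1 binding protein, at 6.06 ± 0.242 TPM (SD, n = 3).

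The genes for membrane supply lay close together and low. Wipi2 and Wipi1 encode proteins that bind the lipid made by that kinase, and WIPI2 recruits ATG16L1. Wipi2 was at 5.44, 5.37 and 6.40 TPM. Wipi1 was at 2.49, 2.49 and 3.20 TPM, so that Wipi2 was 2.11 ± 0.0995 times higher, with no overlap. Atg2a and Atg2b encode lipid transfer proteins of like function, at 4.57, 3.90 and 4.55 TPM and at 4.77, 4.67 and 4.87 TPM. Atg2b was higher by a log2 difference of 0.11 ± 0.085 (SD, n = 3), but by the second quantification the difference was -0.10, and -0.12 when only protein-coding transcripts were summed, so no order of this pair can be given. Atg9a, the gene of the membrane scramblase on ATG9 vesicles, was at 5.45, 4.73 and 5.01 TPM.

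The conjugation machinery joins ATG12 to ATG5 and the ATG8 proteins to lipid. Atg7, the E1-like enzyme of both reactions, had the highest level at 15.4, 16.2 and 17.6 TPM. The E2-like enzymes differed: Atg3, which acts on ATG8 proteins, was at 15.0 ± 0.924 TPM and Atg10, which acts on ATG12, at 2.22 ± 0.222 TPM (SD, n = 3). Atg5 was at 9.57 ± 0.684 TPM and Atg12 at 8.66 ± 0.443 TPM. Atg16l1 encodes the protein that places the ATG12 and ATG5 conjugate on the membrane. It was at 4.49, 4.22 and 4.47 TPM. Its paralog Atg16l2 was the lowest of all 37 genes, at 1.57, 1.66 and 1.57 TPM. Atg16l1 was 2.75 ± 0.180 times higher, with no overlap. The ratio was 4.68 ± 0.418 over protein-coding transcripts only and 1.97 ± 0.383 in the second quantification, again without overlap.

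ATG4 proteases trim new ATG8 proteins so that a glycine ends the chain, and later release them from the membrane. Atg4b was at 6.83, 5.68 and 6.07 TPM, Atg4c at 5.66, 5.09 and 6.01 TPM, Atg4a at 3.66, 3.94 and 4.59 TPM and Atg4d at 2.89, 3.40 and 3.52 TPM. Atg4b did not overlap with Atg4a or Atg4d and was above them in all 3 libraries, by 1.54 ± 0.286 and 1.92 ± 0.385 times (SD, n = 3). Atg4b and Atg4c overlapped, with a log2 difference of 0.13 ± 0.11. These relations depend on the transcripts summed. Over protein-coding transcripts only, the genes ran from Atg4d at 0.60, 0.51 and 0.36 TPM to Atg4c at 5.38, 4.95 and 6.00 TPM. Atg4b then exceeded Atg4d by 9.53 ± 2.84 times, overlapped with Atg4a at 1.12 ± 0.0942 times and lay below Atg4c by a log2 difference of -0.24. In the second quantification Atg4b stood apart from Atg4a at 2.40 ± 0.451 times and from Atg4c at 1.68 ± 0.200 times.

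The ATG8 proteins are the substrates of these proteases. Their last 20 codons are shown because ATG4 cuts in them: each line gives the end of the coding sequence before the stop codon, in mm10 with the M21 annotation, with the last in-frame glycine codon in capitals.
Map1lc3a-201, chr2:155277575-155277634, plus strand: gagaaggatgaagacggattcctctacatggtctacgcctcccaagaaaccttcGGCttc
Map1lc3b-201, chr8:121596708-121596767, plus strand: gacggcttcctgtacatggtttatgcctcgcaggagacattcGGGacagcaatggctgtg
Gabarap-201, chr11:69994462-69994521, plus strand: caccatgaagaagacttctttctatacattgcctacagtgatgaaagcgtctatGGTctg
Gabarapl1-201, chr6:129541105-129541164, plus strand: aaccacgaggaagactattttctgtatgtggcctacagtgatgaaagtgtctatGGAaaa
Gabarapl2-201, chr8:111952343-111952402, plus strand: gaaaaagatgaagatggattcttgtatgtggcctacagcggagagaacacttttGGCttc
In Map1lc3b 5 codons follow the glycine codon, and in the other 4 genes 1 codon does. Over whole coding sequences Map1lc3a and Map1lc3b were 74.7% identical and Gabarap and Gabarapl1 74.6%, and the least alike pair, Map1lc3b and Gabarapl1, 50.5%.

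The 5 ATG8 genes held 54.0% ± 0.773 of the summed TPM of all 37 genes (SD, n = 3), with 343 ± 8.41 TPM. Gabarap (ENSMUSG00000018567.14, chromosome 11, 69991143 to 69994951) was at 233, 243 and 239 TPM, above 98.7% of the expressed protein-coding genes. Gabarapl1 followed at 43.8, 46.8 and 48.3 TPM. Map1lc3b, which encodes the LC3B protein commonly used as the marker of autophagosomes, was at 34.3, 32.6 and 36.9 TPM. Gabarapl2 was at 15.9, 15.7 and 18.1 TPM and Map1lc3a at 6.39, 6.61 and 8.17 TPM. The ranges of the 5 genes over the libraries did not overlap. Gabarap exceeded Gabarapl1 by 5.15 ± 0.196 times, Map1lc3b by 6.90 ± 0.489 times and Gabarapl2 by 14.4 ± 1.11 times, and Map1lc3b exceeded Map1lc3a by 4.94 ± 0.422 times (SD, n = 3). Messages of the GABARAP branch therefore made up most of the family: Gabarap alone took 69.5% ± 1.19 of its TPM, and 62.8% ± 1.07 by the second quantification, where Map1lc3b took 14.0% ± 0.861 in place of 10.1% ± 0.552. Gabarap then exceeded Map1lc3b by 4.51 ± 0.358 times.

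**Figure D2:**
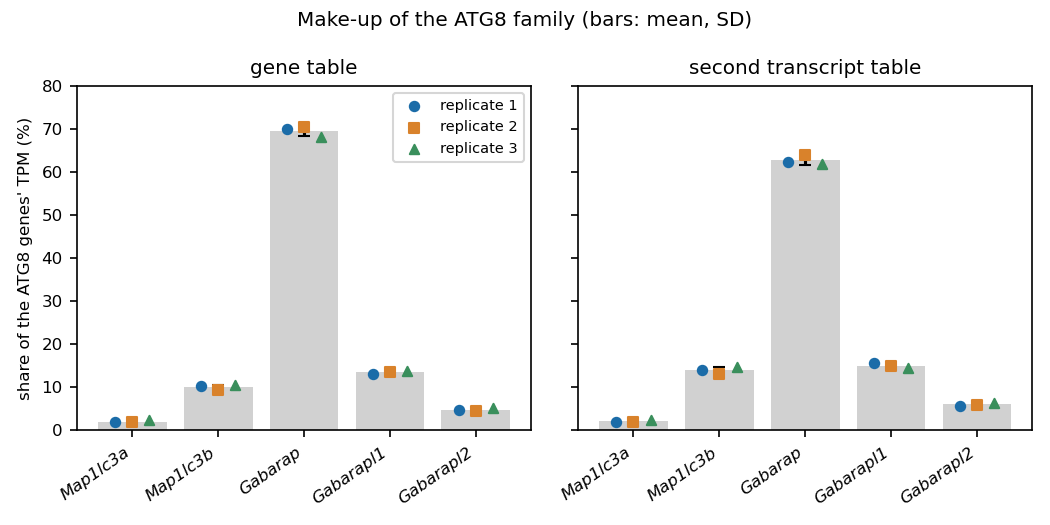
Share of each ATG8 gene in the summed TPM of the 5 genes (percent, y axis), by the gene table and by the second transcript table. Bars are means with SD and symbols are the 3 replicates. Gabarap takes 69.5% and 62.8%, and its 3 replicates lie close together in both panels.

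Cargo receptors link ubiquitinated or other cargo to ATG8 proteins. Tax1bp1, the receptor gene with the highest level, was at 39.4, 40.8 and 45.8 TPM, and Nbr1, a receptor for protein aggregates, at 26.0 ± 1.59 TPM (SD, n = 3). Optn, which encodes optineurin, was at 9.29, 10.7 and 9.88 TPM. Calcoco1, a paralog of the gene for the receptor NDP52, was at 7.64, 8.62 and 8.59 TPM. Stx17, the SNARE of the fusion step, was at 3.91, 3.48 and 4.53 TPM. Each of the 12 pairs of related genes compared above kept its direction in all 3 libraries. With 3 libraries the exact two-sided sign-flip permutation test cannot go below p = 0.25, and every pair had p = 0.25, also after adjustment over the 12 pairs, so none passes a threshold.

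The next comparison asked how much the genes varied between the 3 libraries. Of the 37 genes, 19 (51.4%) differed between libraries by more than counting error, in a chi-square test of counts against TMM library sizes with Benjamini-Hochberg adjustment over 13494 genes. Over all genes tested 50.1% were called, and 54.9% of the protein-coding genes at 1 TPM or more, so the autophagy genes' share is near the background. The differences were small. The highest library exceeded the lowest by a median of 1.10 times, beside 1.12 times over expressed protein-coding genes, and by 1.25 times or more in 2 genes (5.41%, beside a background of 16.6%). Without replicate 1, the test called 8 genes (27.5% of all genes tested), of which 7 were among the 19. Pik3r4, the lipid kinase's regulatory subunit, varied least, by 1.02 times.

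The 2 genes past 1.25 times moved in opposite directions. Atg16l2 was at 8.84, 7.17 and 6.54 CPM (counts scaled to the size of the library) in replicates 1, 2 and 3, highest in replicate 1, a ratio of 1.35 (adjusted p = 0.0021). Map1lc3a was at 9.04, 10.4 and 11.9 CPM, lowest in replicate 1, a ratio of 1.32 (adjusted p = 0.0012). Without replicate 1 the adjusted p was 0.43 for Atg16l2 and 0.074 for Map1lc3a, and without replicate 3 it was 0.13 for Map1lc3a, so either call was lost without a single library.

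Optn, the optineurin gene, was at 40.5, 48.5 and 39.9 CPM, highest in replicate 2, a ratio of 1.21 (adjusted p = 1.5e-10). Calcoco1 was at 35.9, 42.4 and 39.1 CPM and Gabarapl1 at 125, 145 and 136 CPM, both highest in replicate 2 and lowest in replicate 1, with ratios of 1.18 and 1.16. The 4 cargo receptors and 4 of the 5 ATG8 genes were among the 19 called genes, beside the 54.9% called among expressed protein-coding genes, and these small counts were not tested against it. Map1lc3b was not called, at a ratio of 1.03, and Gabarapl2 was called in only 4 of the 9 fits run at this threshold. The other genes among the 10 called genes with the largest ratios were Wipi1 (10.4, 11.1 and 12.6 CPM), Atg4a (13.3, 14.9 and 15.8 CPM), Atg14 (23.2, 22.3 and 20.3 CPM), Atg12 (67.1, 76.6 and 70.8 CPM) and Atg2a (50.2, 44.1 and 47.1 CPM). Atg10, at the low counts given above, had a ratio of 1.16 but was not called. Of the 19 called genes 12 were lowest in replicate 1, the shallowest library. With total counts in place of TMM this was 7 of the same 19, so the count rests on the scaling. Over all 37 autophagy genes, called or not, 17 were lowest in replicate 1 with TMM. Among expressed protein-coding genes, likewise called or not, 51.4% were lowest in replicate 1.

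**Figure D3:**
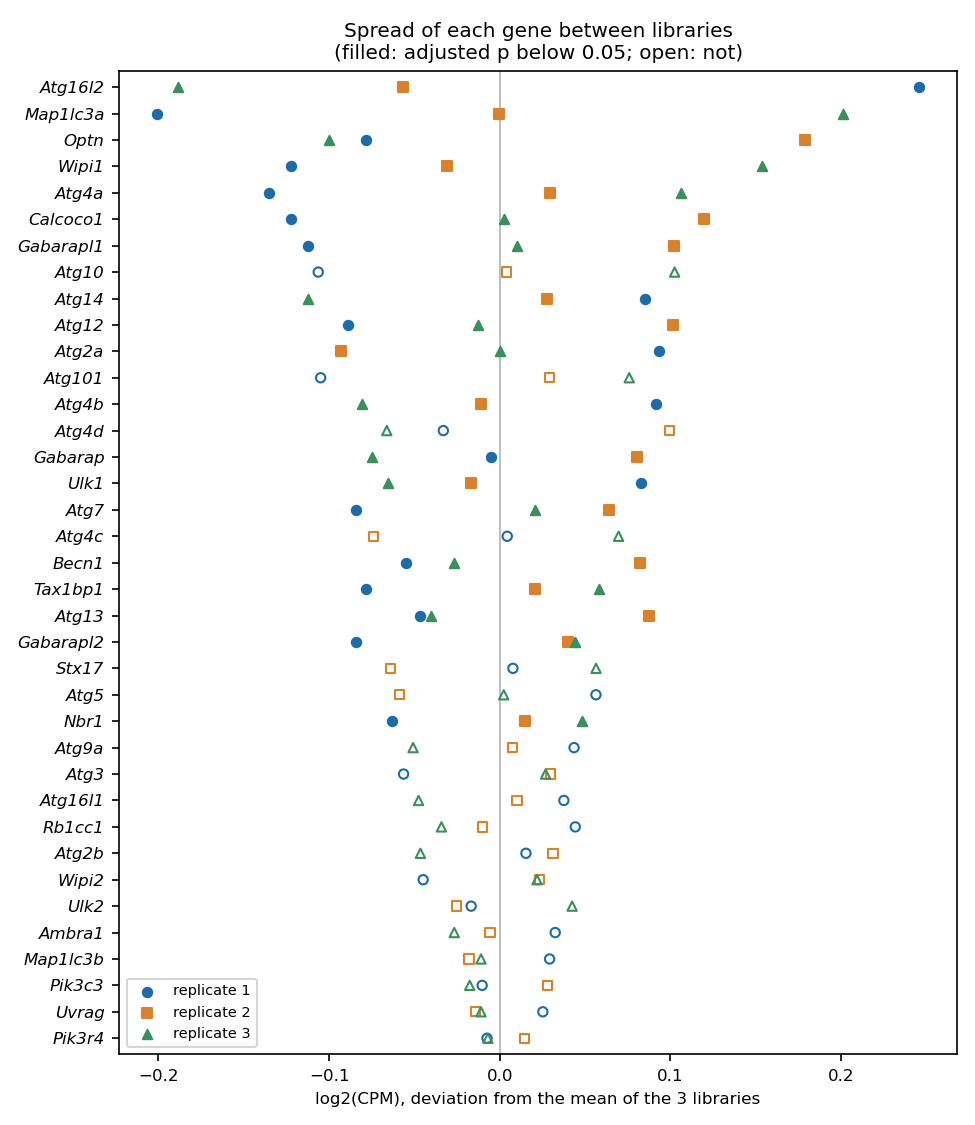
Deviation of each gene's log2(CPM) from its mean over the 3 libraries (x axis), with genes ordered by the ratio of the highest to the lowest library and 1 symbol per replicate. Filled symbols mark the 19 genes that passed the counting test and open symbols the 18 that did not. Atg16l2 and Map1lc3a spread widest, with replicate 1 at opposite ends.

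A gene's TPM sums over all its annotated transcripts, including those that the annotation does not class as protein-coding (retained introns, targets of nonsense-mediated decay and processed transcripts). These held a median of 3.56% of a gene's TPM over the 37 genes, beside 2.46% over expressed protein-coding genes, and more than 10% in 11 genes. They held most of the TPM in 2 genes, Becn1 at 87.6% ± 1.05 and Atg4d at 84.7% ± 5.24 (SD, n = 3). These are 5.41% of the 37 genes, beside 4.17% of expressed protein-coding genes. In the second quantification 4 genes passed 50%: Becn1 at 94.5% ± 0.372, Atg4d at 93.4% ± 1.89, Uvrag at 67.1% ± 3.72 and Atg16l2 at 58.8% ± 9.53. Uvrag had 7.18% ± 3.24 in the first quantification, so its transcripts were divided very differently by the 2 methods, whereas Atg16l2 had 45.2% ± 3.95. Pik3r4 moved the other way, from 43.9% ± 1.74 in the first to 14.5% ± 2.47 in the second.

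**Figure D4:**
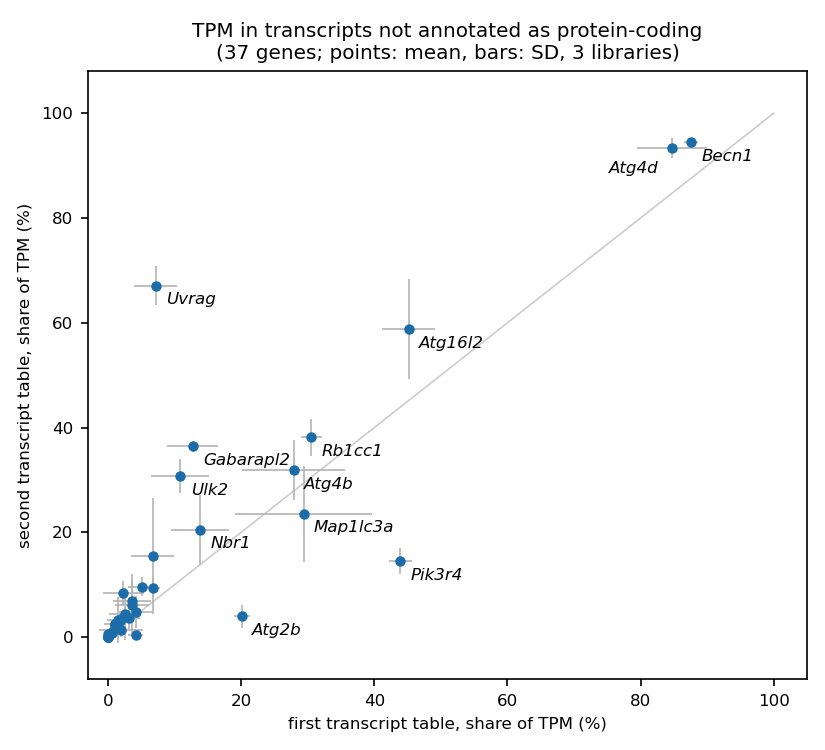
Share of each gene's TPM in transcripts not annotated as protein-coding, by the first (x axis) and the second (y axis) transcript table, in percent, as means with SD over 3 libraries. Becn1 and Atg4d lie above 80% in both, while Uvrag lies at 7.18% in the first and 67.1% in the second.

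For Becn1 (ENSMUSG00000035086.13, chromosome 11, 101285952 to 101302286, minus strand) the level depended on this division. Summed over its protein-coding transcripts only it was at 3.57, 3.61 and 3.30 TPM, which put it in place 33 of the 37 genes in place of 5. The leading transcript of the first quantification, Becn1-211, is classed as a retained intron and took 40.7% ± 3.29 of the TPM. In the second it took 30.5% ± 4.06, beside 30.1% ± 3.57 for Becn1-201, which was above it in replicate 3 (33.7% against 26.3%). Becn1-211 is only 487 bases long, with 5 bases outside the exons of coding transcripts. It took 7.82% ± 1.31 of the gene's estimated counts in the first quantification. The main coding transcript, Becn1-205, is 4365 bases long with a last exon of 3030 bases. It took 11.5% ± 0.367 of the TPM but 35.5% ± 2.16 of the counts in the first quantification. In the second it took only 3.85% ± 0.271 of the TPM and 13.6% ± 0.477 of the counts. Becn1-201, classed as a target of nonsense-mediated decay, took 29.3% ± 1.66 of the TPM and 41.4% ± 1.49 of the counts in the first quantification. In the second it took 48.6% ± 3.79 of the counts. In both it had the largest share of counts among the gene's transcripts listed here. It holds a 64-base segment that Becn1-205 lacks, at chr11:101296194-101296257 on the minus strand, shown in capitals with 12 bases of Becn1-201 on each side because it is what tells the 2 transcripts apart at this place. Becn1-201 has only 4 bases outside the exons of coding transcripts, so most of the segment also lies in exons of other coding transcripts of the gene.
Becn1-201 segment: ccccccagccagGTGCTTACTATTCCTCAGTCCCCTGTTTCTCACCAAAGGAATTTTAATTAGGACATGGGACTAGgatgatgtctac
Its last exon is 720 bases long, against 3030 in Becn1-205, so reads that fall on exons held in common are shared out by the quantification. How much Becn1 message can be translated was not measured here.

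In Atg4d (ENSMUSG00000002820.6, chromosome 9, 21265293 to 21277772, plus strand) the leading transcript was Atg4d-203, also classed as a retained intron, which held 54.1%, 57.9% and 68.2% in replicates 1, 2 and 3. The gene's only protein-coding transcript, Atg4d-201, took 20.7%, 15.0% and 10.2%. Replicate 1 thus had the lowest share of Atg4d-203 and the highest of Atg4d-201, and replicate 3 the reverse. Atg4d-203 has 202 bases outside the coding exons, in 2 stretches of 77 and 125 bases. The 77-base stretch at chr9:21268528-21268604, plus strand, is shown in capitals with 12 bases on each side, since reads over it come from no coding transcript of the gene.
Atg4d-203 segment: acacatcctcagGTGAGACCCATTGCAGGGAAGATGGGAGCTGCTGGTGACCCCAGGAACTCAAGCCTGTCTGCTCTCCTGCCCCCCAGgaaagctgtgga
The last exon is 492 bases in Atg4d-203 and 4519 bases in Atg4d-201. In estimated counts Atg4d-201 took 40.5% ± 10.7 and Atg4d-203 53.7% ± 10.5 (SD, n = 3).

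Across the 37 genes the share outside protein-coding transcripts was highest in replicate 1. The median share was 5.51%, 3.17% and 2.18% in replicates 1, 2 and 3, and 23 of the 31 genes with any such TPM had their highest share in replicate 1. The second quantification gave medians of 8.37%, 4.55% and 2.39%, with 27 of 32 genes highest in replicate 1. Over expressed protein-coding genes the medians stood in the same order, at 2.97%, 2.01% and 1.67%, and 55.3% of those with any such TPM were highest in replicate 1. In Map1lc3a, for example, the processed transcript Map1lc3a-203 took 40.2%, 28.1% and 19.8%. Becn1 and Atg4d did not follow this order and were lowest in replicate 1 in the first quantification. Replicate 1 was also the shallowest library, and the part of depth in this order was not tested.

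Protein-coding transcripts of the same gene also differed between libraries. Atg16l1 (ENSMUSG00000026289.15, chromosome 1, 87755870 to 87792428, plus strand) was divided mainly between Atg16l1-201 and Atg16l1-202. The first took 24.4%, 53.3% and 43.6% of all Atg16l1 TPM in the 3 replicates, and 24.3%, 58.0% and 43.7% in the second quantification. Atg16l1-202 took 65.1%, 41.7% and 51.7%, so the form that led was not the same in every library, although the gene's total stayed within 4.22 to 4.49 TPM. The forms are 3130 and 3004 bases long, with last exons of 1213 and 1207 bases. Atg16l1-201 holds a 57-base coding exon that Atg16l1-202 lacks, at chr1:87774813-87774869, plus strand, whose length is a multiple of 3 so that the reading frame is kept. It is shown in capitals with 12 bases on each side because it is a coding difference between the forms, though not the only difference in sequence.
Atg16l1-201 segment: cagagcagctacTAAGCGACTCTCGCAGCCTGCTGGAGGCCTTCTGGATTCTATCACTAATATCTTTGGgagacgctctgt

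In Gabarap the full-length transcript Gabarap-201 took 66.2%, 61.5% and 62.8% of the TPM. Gabarap-202, also annotated as protein-coding, took 28.3%, 34.9% and 33.9%, but only 4.51%, 16.2% and 11.6% in the second quantification, so its share depends on the method. It lacks a 94-base coding stretch of Gabarap-201 at chr11:69992582-69992675, plus strand, whose length is not a multiple of 3. The stretch is printed in capitals with its 12 flanking bases because its loss changes the reading frame.
Gabarap-201 segment: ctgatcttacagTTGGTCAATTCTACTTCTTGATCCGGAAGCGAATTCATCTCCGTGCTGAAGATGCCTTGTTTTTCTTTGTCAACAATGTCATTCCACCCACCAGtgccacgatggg
The coding sequence of Gabarap-202 ends in another way, shown here for comparison with the ATG8 ends above, with its last glycine codon in capitals and 11 codons after it.
Gabarap-202, chr11:69994523-69994582, plus strand: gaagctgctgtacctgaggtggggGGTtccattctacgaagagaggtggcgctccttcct

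**Figure D5:**
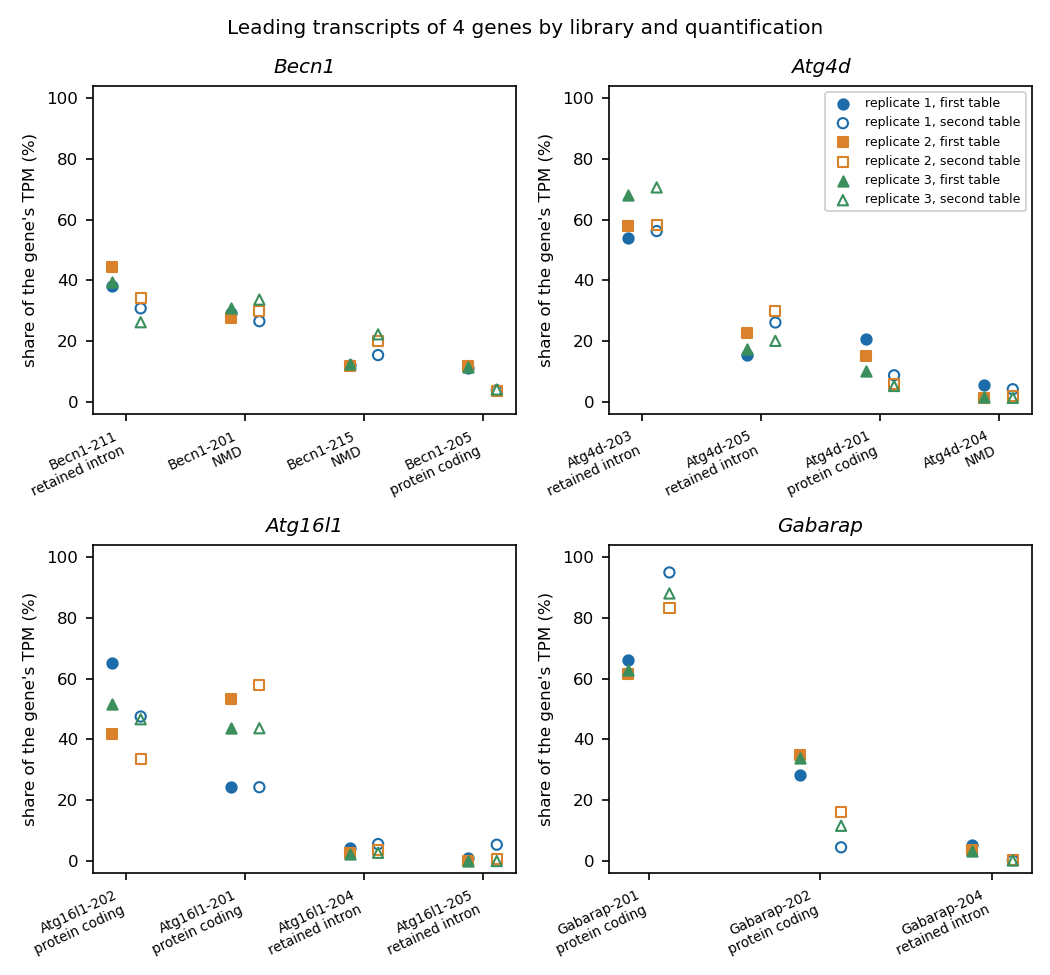
Share of the gene's TPM (percent, y axis) in the leading transcripts of Becn1, Atg4d, Atg16l1 and Gabarap, with 1 symbol per replicate, filled for the first and open for the second transcript table. Atg16l1-201 is lowest in replicate 1 in both tables, and Gabarap-202 is lower in the second table than in the first in all 3 replicates.

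By the mean log2 ratio over libraries, the rescaled totals per gene in the 2 quantifications lay within 1.58 times of each other. With levels rescaled over protein-coding genes, none of the 37 genes differed by a log2 ratio of 1 or more in every library, where 0.470% of expressed protein-coding genes did. With so low a background share, a count of 0 among 37 genes says little. The largest log2 ratios, second over first, were 0.66 in Uvrag, 0.59 in Atg4b, 0.58 in Atg16l2 and 0.52 in Rb1cc1. By the mean share over libraries, the leading transcript was the same in 34 genes. It differed in 3: Rb1cc1 (10.1, 7.93 and 8.83 TPM in all), Atg9a and Atg4c. In Rb1cc1 the long coding form Rb1cc1-201 took 40.8% ± 9.44 of the TPM in the first quantification and 15.8% ± 4.17 in the second. There Rb1cc1-216 had the highest mean with 18.6% ± 3.69, close to 17.8% ± 2.12 for Rb1cc1-212. It did not lead in replicate 3, where it took 14.3%, beside 18.4% for Rb1cc1-212 and 18.2% for Rb1cc1-201.

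Sequence held in common with other genes limits some levels. Each gene's main protein-coding transcript was cut into words of 31 bases, which were looked for in the transcripts of all other genes on either strand. No word was shared in 17 genes, and more than 10% of words were shared in 8. Atg4a shared 74.9%, mainly with Atg4a-ps, which was itself at 0.01, 0.07 and 0.01 TPM. Atg9a shared 48.1% with Gm29253, a gene that overlaps it on the same strand of chromosome 1 and was at 0.110 ± 0.0265 TPM. Gabarapl2 (21.3%), Rb1cc1 (21.4%) and Map1lc3b (17.3%) shared words with processed pseudogenes, of which Gm6055, the partner of Map1lc3b, had the highest level at 0.757 ± 0.115 TPM. Becn1-205 shared 48.3% of its words, mainly with Cntd1 on the opposite strand (0.0467 ± 0.0351 TPM), and Gabarapl1 19.5% with 1700101I11Rik on the opposite strand (0.180 ± 0.104 TPM). The words that Atg4d shared (20.4%) lay in Kri1 on the opposite strand, at 6.40 ± 0.626 TPM and thus above Atg4d itself. Without a stated strand setting, reads of such pairs cannot be told apart, so the level of Atg4d is uncertain. The levels of Atg4a, Atg9a and the genes that share their words are likewise uncertain where the counting could split reads. The deposited posterior standard deviation was at most 0.358% of the count for Atg4a and 1.17% for Atg9a.

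The regulators upstream had a lower median than the ATG8 genes, a difference that was not tested. In the mean, 5 of them lay above the ATG8 gene Map1lc3a, but the ranges of Rptor, Prkaa1 and Prkab1 overlapped with its range. Of 11 genes for subunits of mTORC1, the kinase that holds autophagy back when nutrients suffice, and of AMPK, the kinase that promotes it when energy is low, 10 reached 1 TPM in each library. Their median was 5.76 TPM, and 5 of 11 (45.5%) differed between libraries beyond counting error, beside 50.1% of all genes tested. The 6 highest were Akt1s1 (15.5 ± 0.701 TPM), Prkag1 (8.71 ± 0.438 TPM), Rptor (7.47 ± 0.683 TPM), Prkaa1 (7.40 ± 0.695 TPM), Prkab1 (7.27 ± 0.121 TPM) and Prkag2 (5.76 ± 0.294 TPM). The lowest were Deptor (2.84 ± 0.197 TPM), Mlst8 (2.47 ± 0.317 TPM), Prkab2 (1.48 ± 0.193 TPM) and Prkaa2 (0.06, 0.03 and 0.03 TPM). Of the catalytic AMPK subunits, Prkaa1 was therefore the only one that reached 1 TPM in these libraries.

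A further 36 genes with roles in autophagy had a median of 17.7 TPM, and 34 of them reached 1 TPM in each library. The counting test called 23 of the 36 (63.9%), beside 50.1% of all genes tested and 54.9% of expressed protein-coding genes; whether the list differs from these was not tested. Ncoa4, the receptor that brings ferritin to the autophagosome, led at 153, 162 and 173 TPM. Sqstm1, which encodes the cargo receptor p62, followed at 118, 135 and 130 TPM. Ncoa4 and Sqstm1 were thus above every core gene but Gabarap in each library. Next came Sh3glb1 (85.5 ± 1.74 TPM), whose product binds Beclin 1 through UVRAG, the lysosomal SNARE gene Vamp8 (67.2 ± 2.91 TPM), the tether gene Tecpr1 (65.8 ± 4.21 TPM) and Rtn3 (62.9 ± 2.25 TPM), a receptor for turnover of the endoplasmic reticulum. The lowest were the tether gene Epg5 (3.63 ± 0.317 TPM), Tecpr2 (3.04 ± 0.280 TPM), Bcl2 (0.900 ± 0.0954 TPM), whose product binds Beclin 1, and Atg9b (0.44, 0.84 and 0.86 TPM). Atg9b thus lay below its paralog Atg9a in every library.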

How the data were processed

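A gene table and 2 transcript tables were deposited for each library, made on mm10 and M21 gene models per the file headers and accompanying text files. The authors' gene table and first transcript table hold expected counts, TPM and posterior standard deviations of counts, and their second transcript table estimated counts and TPM. Neither the aligner nor the quantifiers, nor whether strand was used, is given in the sources used here. Columns not used include the authors' confidence bounds and percentages.

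Entries that name no gene (0.449%, 0.203% and 0.141% of the counts in replicates 1, 2 and 3) entered neither library sizes nor tests. Expected counts were rounded and tested by chi-square against TMM effective library sizes (edgeR 4.0.16) for the 13494 genes whose counts summed to at least 30 (Benjamini-Hochberg adjusted p below 0.05). The test covers counting error only and compares these libraries, not conditions. CPM divides counts by those sizes. Pairs were compared on log2(TPM + 1), which understates differences between low genes. Quantifications were compared after rescaling TPM so that protein-coding nuclear genes sum alike, which raises log2 levels by 2.04, with 0.1 added. The counting test was tested on simulated data. Python 3.11.15, scipy 1.17.1 and R 4.3.3 were used.

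The genes and gene lists were chosen with earlier results of these data known. Values per library are given for the highest and lowest gene of each role, genes in pairs, the 10 called genes with the largest ratio, and genes whose leading transcript is noncoding or differs between quantifications. Of the other lists the 6 highest and 4 lowest genes are named. Alternatives varied the scaling, filter, threshold, quantification, pseudocount, transcripts summed and libraries used.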

Additional observations from a re-analysis of the deposited data

How the results depend on the processing

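Leaving out a library moved the count of autophagy genes that differed between libraries from 19 to between 8 (without replicate 1) and 14 (without replicate 2 or 3). The other settings gave 14 to 22, with 22 under total counts in place of TMM, of which 13 were among the 19. The median level of 7.06 TPM became 29.0 TPM after rescaling over protein-coding genes. It was 3.12 TPM in the second quantification and 27.5 TPM in that quantification rescaled. The median of expressed protein-coding genes was 30.3, 3.55 and 31.1 TPM under the same settings, so most of these moves are changes of scale. Between the 2 rescaled quantifications, however, the autophagy median fell from 29.0 to 27.5 TPM while that of expressed protein-coding genes rose from 30.3 to 31.1 TPM. The median share outside protein-coding transcripts fell from 3.56% to 1.28% when estimated counts replaced TPM, and the genes with over 50% rose from 2 to 4 in the second quantification. Of the 12 pairs, Atg2b against Atg2a reversed in the second quantification (-0.10) and with protein-coding transcripts only (-0.12), as did Atg4b against Atg4c with protein-coding transcripts only (-0.24). No other pair changed direction under any setting run. The number of genes on which the quantifications differ stayed at 0 under all 5 settings tried. No paired analysis between conditions was possible because the libraries form 1 group. Depth limits the genes with few counts: Atg10, with 180 to 292 counts, had a ratio of 1.16 between libraries and was not called. With 3 libraries the smallest p for a pair is 0.25.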
